A study of Homo sapiens with 6 samples.

Results

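NKG2D is an activating receptor of natural killer (NK) cells and of part of the T cells, and its ligands are distant relatives of MHC class I molecules that stressed, infected or transformed cells place on their surface. In humans the ligands form a pair of families. The MIC proteins MICA and MICB span the membrane and are encoded in the MHC, and the ULBP/RAET1 proteins are encoded in a cluster on the long arm of chromosome 6. ULBP1, ULBP2, ULBP3 and RAET1L are known as proteins held by a glycosylphosphatidylinositol (GPI) anchor, whereas RAET1E spans the membrane. The ligand genes are known to respond to different stresses, so that a tumour cell can carry one ligand and lack another.

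The 8 NKG2D ligand genes ULBP1, ULBP2, ULBP3, MICA, MICB, RAET1E, RAET1G and RAET1L were followed in H358 cells, an established epithelial line of non-small-cell lung cancer. They were taken by gene symbol from a table of 57150 genes. Each symbol had 1 row, so no level entered the choice of rows. The family itself was chosen by its differences between these same libraries, seen in earlier results, so the fold changes and adjusted p-values of its members describe them and are no independent test. In 3 libraries RBM47, which encodes an RNA-binding protein, had been knocked down by short hairpin RNAs brought in with lentivirus, and 3 libraries came from H358 cells given a control knockdown. The series design calls them biological triplicates. The number of hairpins and their sequences were not given in the sources used here. Values are FPKM, fragment counts scaled to transcript length and library depth. Comparisons of level between genes are limited by the shared sequence and joined loci given below.

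RBM47 itself was at 12.01, 13.4 and 13.5 FPKM in the knockdown libraries, against 85.2, 92.4 and 87.9 FPKM in the control libraries, which left 14.6% of the control level. Between 14220 and 14526 genes reached 1 FPKM in a library. The number of fragments per library is unknown. Read from the smallest values, the depth relative to knockdown replicate 1 was 1.03 and 1.05 for knockdown replicates 2 and 3. For the controls it was 1.09, 1.08 and 1.16. By this estimate each control library was somewhat deeper. The scaling between libraries, which enters these ratios, was not given, so depth itself was not measured. The epithelial markers EPCAM, CDH1, KRT7, KRT8, KRT18, KRT19, CLDN4 and ELF3 were all present, with summed levels of 3471 to 3566 FPKM in knockdown libraries and 4096 to 4383 FPKM in control libraries, and 6 of the 8 were lower in the knockdown (limma, adjusted p under 0.05), as were 6.34% of all genes tested. Of 13 lymphocyte markers 5 (CD2, CD3D, CD4, NKG7 and PRF1) were listed at 0 in every library and the whole list summed to 1.42 to 2.15 FPKM in knockdown libraries and 1.32 to 1.46 FPKM in control libraries. Of 7 myeloid markers 2 were at 0 throughout and 6 under a mean of 1 FPKM; their sums of 24.5 to 32.5 FPKM in knockdown and 32.8 to 36.2 FPKM in control libraries were mostly CD68, a lysosomal protein gene. Of 8 stromal markers found, 6 were under a mean of 1 FPKM, and sums were 27.0 to 35.4 FPKM in knockdown and 32.7 to 36.1 FPKM in control libraries.

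The sequences before the transcription starts of 5 ligand genes are shown because these genes carry the results that follow: ULBP1, ULBP2 and RAET1E are the members that changed, and MICA and MICB are a pair of paralogs with closely related promoters. Each is the 250 bases before the start given by RefSeq in GRCh38.p14, read 5′ to 3′ on the strand of the gene. Capitals mark TGACG, the core of the cAMP response element bound by CREB and ATF proteins, and GAANNTTC, a unit of the heat shock element, on either strand. RAET1E has 3 starts in that table, and the one farthest upstream is shown.
ULBP1 (chr6:149963693-149963942, plus strand): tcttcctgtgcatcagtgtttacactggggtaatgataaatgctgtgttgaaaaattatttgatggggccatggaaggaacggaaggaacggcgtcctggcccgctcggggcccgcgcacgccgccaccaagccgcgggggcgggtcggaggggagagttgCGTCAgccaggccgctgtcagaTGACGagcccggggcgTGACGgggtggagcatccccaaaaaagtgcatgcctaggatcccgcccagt
ULBP2 (chr6:149941764-149942013, plus strand): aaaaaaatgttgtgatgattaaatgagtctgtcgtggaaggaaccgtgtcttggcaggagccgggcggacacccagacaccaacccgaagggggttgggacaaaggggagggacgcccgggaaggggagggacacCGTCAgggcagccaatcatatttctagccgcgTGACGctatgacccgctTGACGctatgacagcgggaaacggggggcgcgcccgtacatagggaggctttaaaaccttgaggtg
RAET1E (chr6:149898114-149898363, minus strand): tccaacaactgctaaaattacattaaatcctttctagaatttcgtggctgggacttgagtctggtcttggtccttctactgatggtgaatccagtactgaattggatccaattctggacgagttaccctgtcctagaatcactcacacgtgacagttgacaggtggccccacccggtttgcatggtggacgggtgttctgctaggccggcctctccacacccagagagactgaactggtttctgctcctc
MICA (chr6:31403345-31403594, plus strand): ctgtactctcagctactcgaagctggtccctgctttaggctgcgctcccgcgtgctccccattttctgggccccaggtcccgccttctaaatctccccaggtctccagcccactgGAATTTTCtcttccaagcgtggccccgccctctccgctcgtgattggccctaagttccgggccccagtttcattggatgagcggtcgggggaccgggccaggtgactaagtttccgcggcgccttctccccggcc
MICB (chr6:31497895-31498144, plus strand): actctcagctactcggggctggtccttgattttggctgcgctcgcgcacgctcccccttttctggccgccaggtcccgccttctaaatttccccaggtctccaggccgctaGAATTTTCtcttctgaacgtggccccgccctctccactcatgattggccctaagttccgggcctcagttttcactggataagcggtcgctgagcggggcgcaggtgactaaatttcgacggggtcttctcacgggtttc

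ULBP1 and ULBP2 were the most abundant ligand transcripts of these cells, and both fell when RBM47 was lowered, while RAET1E rose. Of the 8 members 6 reached a mean of 1 FPKM and were tested, each of them above 1 FPKM on average in both groups. Of these 6, 1 was higher and 2 were lower in the knockdown in limma on log2(FPKM + 1) with an adjusted p under 0.05 over all 14419 genes tested, of which 11.4% were called, 5.10% higher and 6.34% lower. With libraries scaled to the same total FPKM the balance over all genes turned, with 914 called higher and 786 lower. The direction thus differed within the family, and even within the cluster on chromosome 6. The share of 3 in 6 is likewise a description of the family.

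ULBP1 encodes a GPI-anchored ligand and lies at 150285143 to 150294844 on chromosome 6 (ENSG00000111981, hg19, alone in its locus). Its level was 8.72, 8.06 and 8.48 FPKM in the knockdown libraries, against 14.9, 13.7 and 14.05 FPKM in the control libraries. The 3 knockdown values were all well under the lowest control value. The means were 8.42 ± 0.337 FPKM in the knockdown and 14.2 ± 0.614 FPKM in the control (SD, n = 3 each), so the knockdown held 59.3% of the control level. On the log2(FPKM + 1) scale ULBP1 fell by 0.69 (SE 0.06, limma, adjusted p = 0.00171). By size it was number 73 among the 914 genes called lower.

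ULBP2, the ligand gene nearest to ULBP1, lies at 150263136 to 150270371 on chromosome 6 (ENSG00000131015, also alone in its locus). It stood at 7.36, 7.03 and 7.14 FPKM in the knockdown libraries, against 13.6, 13.6 and 13.6 FPKM in the control libraries. The groups were far apart and the libraries of each group close together. The means were 7.18 ± 0.168 FPKM in the knockdown and 13.6 ± 0.0357 FPKM in the control (SD, n = 3 each), which is 52.8% of the control level. The fall was 0.84 on the log2 scale (SE 0.06, limma, adjusted p = 0.000933), number 34 in size among the genes called lower.

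RAET1E, which encodes a ligand with a membrane-spanning segment also known as ULBP4, went the other way. Its locus at 150204511 to 150244257 on chromosome 6 (ENSG00000164520) is shared in the table with 3 other genes, one of them RAET1G. RAET1E was at 4.06, 3.75 and 3.28 FPKM in the knockdown libraries, against 1.52, 1.61 and 1.62 FPKM in the control libraries. Every knockdown library was well above every control library. The means were 3.70 ± 0.394 FPKM in the knockdown and 1.59 ± 0.0562 FPKM in the control (SD, n = 3 each), a ratio of 2.33. The log2 fold change of 0.86 (SE 0.11, limma, adjusted p = 0.00419) is smaller than that ratio because 1 FPKM is added before the logarithm. It was number 71 in size among the 736 genes called higher.

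**Figure D1:**
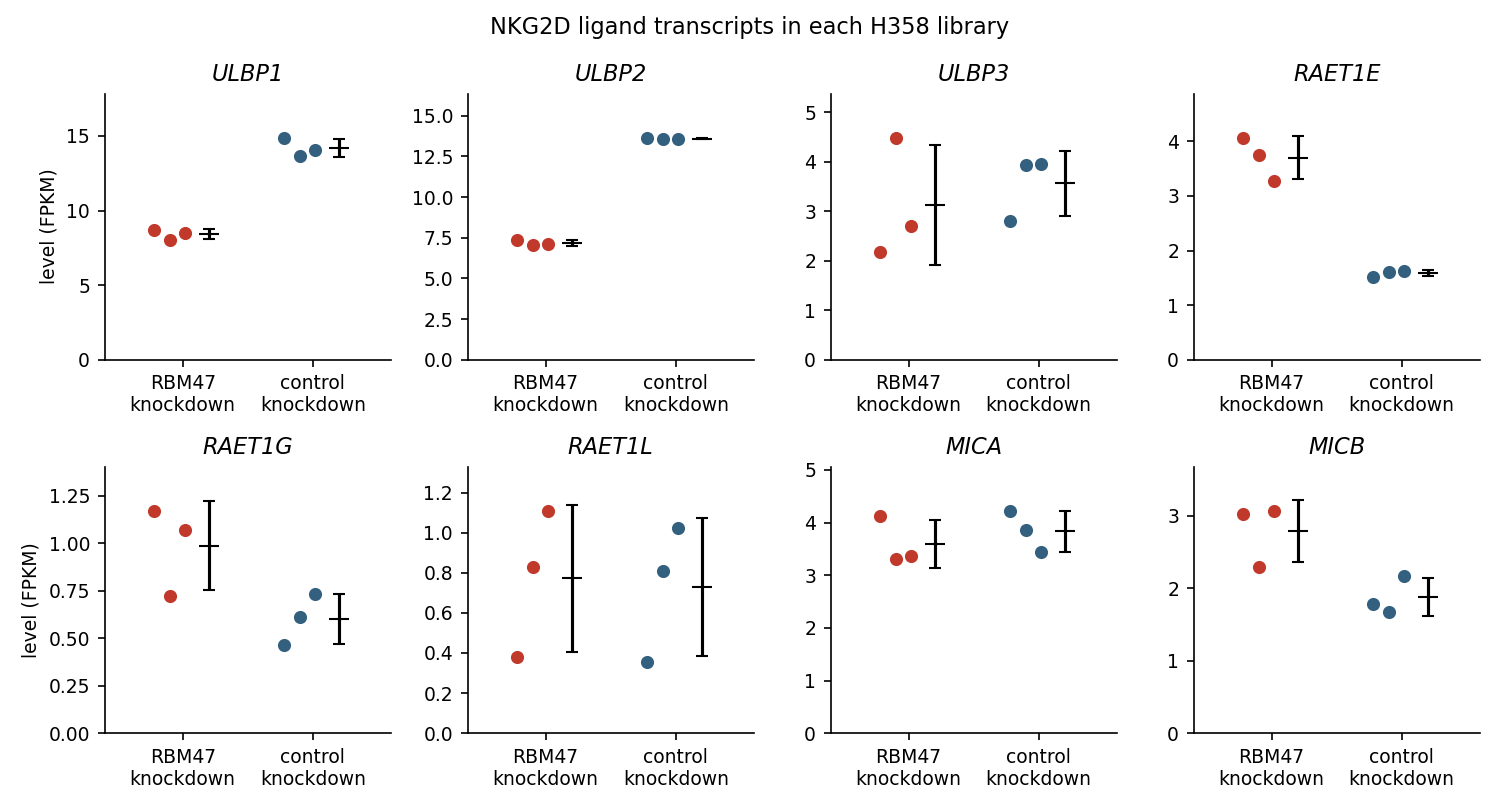
Level in FPKM (vertical axes, each from 0) of the 8 NKG2D ligand genes in each library, knockdown in red and control in blue, with the mean and SD of 3 libraries as a black bar. The knockdown points lie below all control points for ULBP1 and ULBP2 and above them for RAET1E and MICB, and the groups overlap in the other 4 genes. Over all genes tested the groups did not overlap in 34.0%.

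The MIC genes encode the MHC-linked ligands, and neither passed the threshold. MICA (ENSG00000204520, in a locus of 5 genes at 31368479 to 31445283) was at 4.12, 3.31 and 3.36 FPKM in the knockdown libraries, against 4.21, 3.86 and 3.43 FPKM in the control libraries. The groups overlapped, with a log2 fold change of -0.07 and a 95% interval of -0.33 to 0.18 (limma, adjusted p = 0.705). MICB (ENSG00000204516, at 31462658 to 31478901) was at 3.02, 2.30 and 3.06 FPKM in the knockdown libraries, against 1.79, 1.68 and 2.17 FPKM in the control libraries. Its groups did not overlap, as in 34.0% of all genes tested, and its log2 fold change of 0.40 (SE 0.13, 95% interval 0.09 to 0.70) had an unadjusted p of 0.0176 in limma and an adjusted p of 0.0965. The ratio of MICB to MICA was 0.734, 0.695 and 0.911 in the knockdown libraries and 0.424, 0.434 and 0.633 in the control libraries.

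The remaining members were scarce or varied between libraries. ULBP3, a GPI-anchored ligand (ENSG00000131019), was at 2.18, 4.49 and 2.71 FPKM in the knockdown libraries, against 2.80, 3.95 and 3.95 FPKM in the control libraries. Knockdown replicate 2 was the highest of all 6 libraries and replicate 1 the lowest, so the groups overlapped. The log2 fold change was -0.17 with a 95% interval of -0.66 to 0.31 (limma, adjusted p = 0.626). RAET1G (ENSG00000203722) was under the filter, at 1.17, 0.721 and 1.07 FPKM in the knockdown libraries, against 0.466, 0.611 and 0.731 FPKM in the control libraries. Its lowest knockdown value lay just under its highest control value. RAET1L, also named ULBP6 (ENSG00000155918), ran from 0.380 to 1.11 FPKM in the knockdown libraries and from 0.353 to 1.03 FPKM in the control libraries, a spread within each group that left the groups on top of each other. In a fit without the filter RAET1G differed by 0.31 on the log2 scale (limma, adjusted p = 0.271) and RAET1L by 0.03 (adjusted p = 0.964). At these levels the added 1 FPKM shrinks the fold change strongly. The means of RAET1G were 0.986 FPKM in the knockdown and 0.602 FPKM in the control, a ratio of 1.64.

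**Figure D2:**
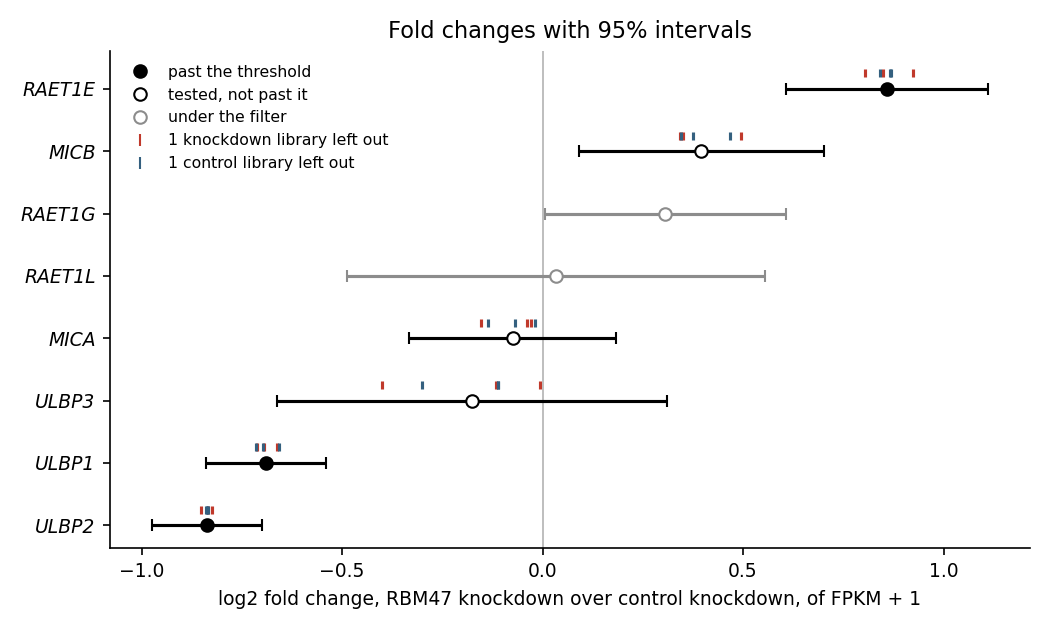
Log2 fold change of FPKM + 1, knockdown over control, for each ligand (horizontal axis) with its 95% interval from limma. Filled points passed the adjusted threshold, open black points did not, grey points were under the filter, and the ticks above a bar are the fits that left out 1 library; all ticks of ULBP1, ULBP2 and RAET1E stay on their own side of 0, from 0.80 to 0.92 for RAET1E.

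Summed over the 8 genes, ligand RNA was lower in the knockdown and its make-up differed. The sum was 31.0, 30.5 and 30.2 FPKM in the knockdown libraries, against 39.7, 39.8 and 40.6 FPKM in the control libraries. ULBP1 and ULBP2 together made up 51.0 ± 1.32% of it in the knockdown and 69.5 ± 2.08% in the control (SD, n = 3 each). RAET1E held 12.1 ± 1.13% in the knockdown and 3.96 ± 0.113% in the control. The other 6 genes without ULBP1 and ULBP2 summed to 14.9, 15.4 and 14.6 FPKM in the knockdown libraries and to 11.1, 12.5 and 12.9 FPKM in the control libraries. In bulk RNA, fewer cells carrying a transcript and less of it per cell cannot be told apart, and ligand protein on the cell surface was not measured here.

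**Figure D3:**
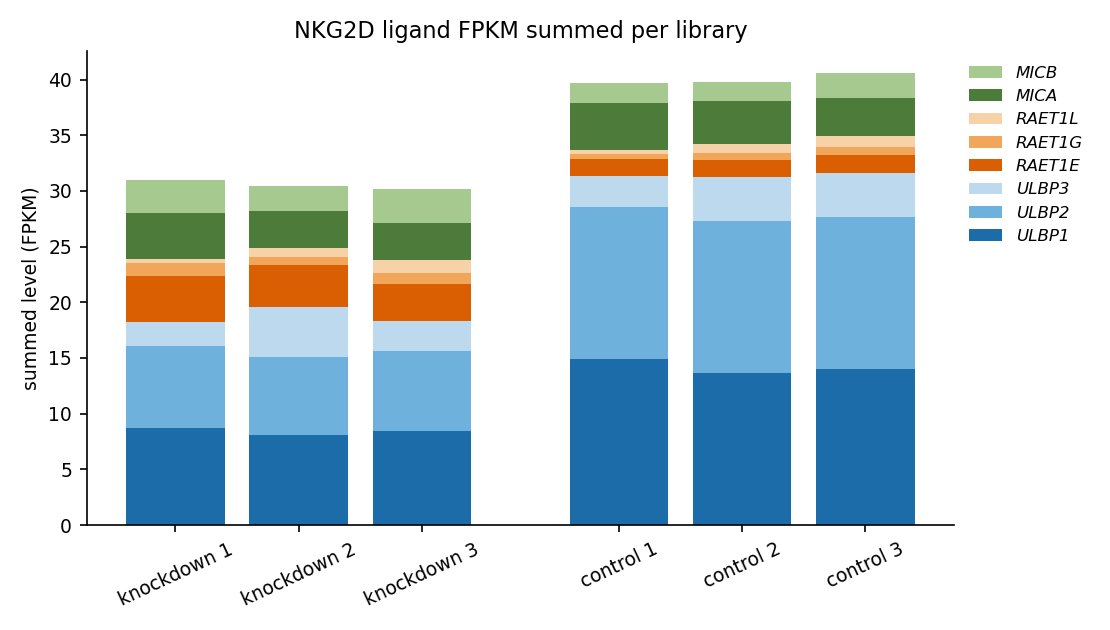
Summed FPKM of the 8 ligand genes in each library (vertical axis, from 0), knockdown libraries on the left and control libraries on the right, with 1 colour for each gene. The blue ULBP1 and ULBP2 blocks are shorter in the 3 knockdown bars and the dark orange RAET1E block is taller.

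The order of the group means shifted accordingly. In the knockdown libraries it ran ULBP1, ULBP2, RAET1E, MICA, ULBP3, MICB, RAET1G and RAET1L, and the ranges of RAET1E and MICA, of MICA and ULBP3, of ULBP3 and MICB and of RAET1G and RAET1L overlapped. In the control libraries it ran ULBP1, ULBP2, MICA, ULBP3, MICB, RAET1E, RAET1L and RAET1G, with overlap only between MICA and ULBP3 and between RAET1L and RAET1G. By mean RAET1E was thus the third ligand in the knockdown and the sixth in the control. In each single knockdown library, though, MICA or ULBP3 stood above RAET1E. The knockdown range of ULBP3 also covered that of RAET1E. The ratio of RAET1E to ULBP1 was 0.466, 0.466 and 0.387 in the knockdown libraries, against 0.102, 0.118 and 0.116 in the control libraries. ULBP2 stood at 0.853 ± 0.0174 of ULBP1 in the knockdown and 0.959 ± 0.0389 of it in the control (SD, n = 3 each).

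The genes whose profiles over the 6 libraries came closest to those of the 3 ligands that changed were named by the smallest root mean square difference of centred log2(FPKM + 1) values. For ULBP1 they were BBC3, the gene of the pro-apoptotic protein PUMA (difference 0.0404), IDH1, an isocitrate dehydrogenase (0.0454), and LCN2, the gene of lipocalin 2 (0.0459). For ULBP2 they were SQSTM1, an autophagy receptor (0.0349), LCN2 (0.0503) and AGR2, a disulfide isomerase of secretory cells (0.0532). SQSTM1 was at 138, 134 and 137 FPKM in the knockdown libraries, against 252, 232 and 237 FPKM in the control libraries. For RAET1E they were SPP1, the gene of osteopontin (0.0418), ID3, an inhibitor of helix-loop-helix factors (0.0623), and TBC1D1, a Rab GTPase-activating protein (0.0659). SPP1 was at 272, 264 and 244 FPKM in the knockdown libraries, against 149, 145 and 145 FPKM in the control libraries. Candidates numbered 10331 genes for ULBP1 and ULBP2 and 10332 for RAET1E. The 1 FPKM added before the logarithm shrinks the fold change of RAET1E more than that of SPP1. RAET1E had means of 3.70 against 1.59 FPKM and a log2 fold change of 0.86. SPP1 had 260 against 146 FPKM and 0.83. A small difference thus does not mean an equal ratio of FPKM. With 2 groups of 3 libraries, genes with a like difference between the groups come close by this measure.

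The promoters of ULBP1 and ULBP2, printed above, each held TGACG 3 times, and the windows taken for the other 6 ligands did not hold it. For RAET1E this covers only the start farthest upstream, and the windows of its other starts are not given here. In ULBP1 the matches began 89, 67 and 51 bases before the start, and in ULBP2 115, 83 and 66 bases before it. Over all 35116 RefSeq windows of the same length 21.2% held the motif and 1.01% held it at least 3 times. The motif was chosen after these promoters had been seen. In the counts by gene that follow, a gene with several starts was taken at its window with the most matches. Among 9275 tested genes that have such a window, 7.09% were called lower and 5.48% higher, and among the 216 of them with at least 3 matches 22 (10.2%) were lower and 10 (4.63%) higher, the 22 including ULBP1 and ULBP2. The median log2 fold change of the 216 was 0.0028, and with 1 match or more 7.51% were lower, against 6.86% with none. The full palindrome TGACGTCA was in none of the 8 windows and in 1.65% of all windows, and TGATGNAA, the combined C/EBP and ATF element, was in none of the 8 and in 3.14% of all. These matches describe letters, and binding was not measured.

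MICA and MICB were the only pair among 28 with closely related promoters, identical at 84.0% of the 250 bases in a global alignment, where the other 27 pairs ran from 44.8 to 59.2%. Both windows held the heat shock unit GAANNTTC once, in the same form GAATTTTC, which 5.78% of all windows held. It began 135 bases before the start of MICA and 139 before that of MICB, and it was in none of the other 6 windows. The GC box GGGCGG was in the windows of ULBP1, ULBP2, ULBP3, MICA, MICB and RAET1G, 6 times in ULBP3, and in 42.6% of all windows.

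Sequence shared with other genes bears on how reads of these genes can be assigned. Of the different 50-base words in the coding transcripts of GENCODE release 29, ULBP2 shared 32.2% with other genes, 29.4% with RAET1L. RAET1L shared 31.5%, ULBP3 12.4%, RAET1G 12.4%, ULBP1 6.85%, MICB 3.09% and MICA 2.43%. RAET1E shared 38.5%, nearly all of it (38.2%) with the gene model AL355312.5. The part of shared reads in the values of these genes was not tested. The antisense gene RP11-244K5.1, which shares the locus of RAET1E, had 0.204, 0 and 0 FPKM in the knockdown libraries, against 0.186, 0 and 0.175 FPKM in the control libraries. RP11-350J20.9, in the same locus, had 0.0869, 0.0846 and 0.110 FPKM in the knockdown libraries, against 0, 0.0268 and 0.0250 FPKM in the control libraries. Both were named after their values were seen. The strand setting of the counting was not given in the sources used here.

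Around the RAET1/ULBP cluster, which spans 186 kb, most other genes did not pass the threshold. Of 9 other tested genes whose centre lay within 500 kb of the centre of a ligand locus, 1 was higher and none lower in limma, with a median log2 fold change of -0.13. The exception was LRP11, a low-density lipoprotein receptor relative next to RAET1E, at 24.0 ± 1.79 FPKM in the knockdown and 19.2 ± 1.64 FPKM in the control (SD, n = 3 each; log2 fold change 0.31, limma, adjusted p = 0.0459). Its call was lost without any 1 of the 3 knockdown libraries or control replicates 1 or 2 (adjusted p = 0.0741 to 0.139) and it was named after its values were seen. In the MHC, 38 other genes were tested within the same distance of MICA or MICB, of which 2 were higher and 3 lower (median 0.02). Both counts of neighbours are small and near the 11.4% called over all genes tested. HCP5, a long noncoding RNA whose locus the table joins to that of MICA, was at 14.2, 16.2 and 16.4 FPKM in the knockdown libraries, against 10.3, 13.2 and 10.4 FPKM in the control libraries. It rose by 0.44 on the log2 scale (limma, adjusted p = 0.0333), a call that was lost without any 1 of the 3 knockdown libraries or control replicates 1 or 3 (adjusted p = 0.0531 to 0.116). NEU1, a lysosomal sialidase, had the largest fall there, 0.50 on the log2 scale (adjusted p = 0.00378, named after its values were seen).

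**Figure D4:**
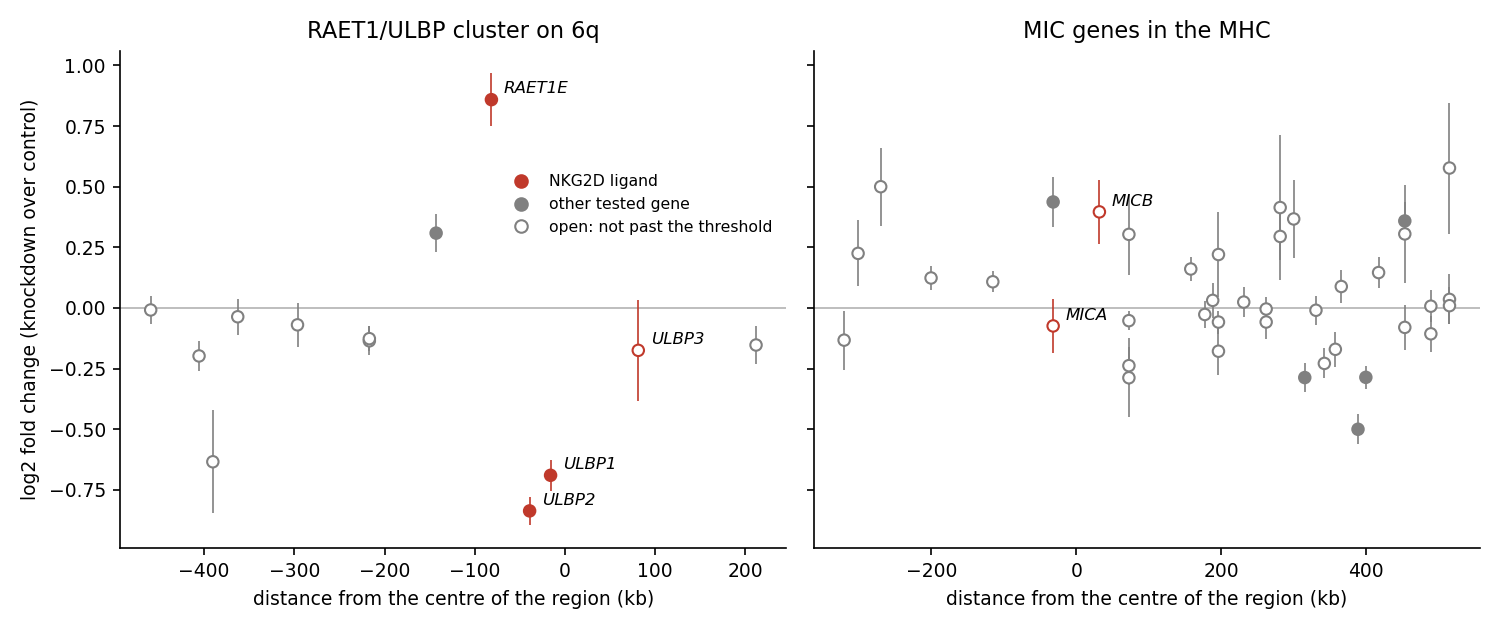
Log2 fold change of every tested gene near the ligands (vertical axis, bars are the standard error from limma) by distance in kb from the centre of each region (horizontal axis). Red points are ligands and grey points other genes, filled where the adjusted p was under 0.05. The ULBP2, ULBP1, RAET1E and ULBP3 points lie at -0.84, -0.69, 0.86 and -0.17, and their 9 neighbours run from -0.63 to 0.31. The lower end is RPS18P9, at means of 0.836 FPKM in the knockdown and 1.80 FPKM in the control, named after its values were seen. At such low levels the added 1 FPKM shrinks the fold change, so the points do not rank the genes by ratio of FPKM.

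Transcripts of the receptor side were listed at 0 or at low levels. The adaptor TYROBP (named after its values were seen) was listed at 0 in every library and HCST, the adaptor of NKG2D, at 0 in 3 of 6. KLRK1, the gene of NKG2D itself, was at 1.14, 1.06 and 1.34 FPKM in the knockdown libraries, against 0.914, 0.847 and 0.858 FPKM in the control libraries (log2 fold change 0.21, limma, adjusted p = 0.335), in a locus that the table gives to several genes. This symbol had 2 rows, and the values are those of the row with the higher mean.

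Of 7 genes for ligand shedding, the cutting of ligands from the cell surface, 6 were tested, 2 were lower and none was higher, where 6.34% of all genes tested were lower. ADAM9, a membrane protease, was at 135 ± 2.47 FPKM in the knockdown and 205 ± 7.51 FPKM in the control (SD, n = 3 each), a fall of 0.59 on the log2 scale (limma, adjusted p = 0.00105). PDIA6, a disulfide isomerase that is known to act on MICA before it is shed, was at 239 ± 6.28 FPKM in the knockdown and 291 ± 9.72 FPKM in the control (-0.28, adjusted p = 0.00728). The main sheddases ADAM10 and ADAM17 had log2 fold changes of -0.01 and -0.01 (adjusted p = 0.882 and 0.855). MMP9 had 0.53 and MMP14 0.26 (adjusted p = 0.0582 and 0.3), and MMP2 was under the filter. ADAM10, ADAM17 and the 3 MMP genes were named after their values were seen.

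Of 29 genes reported to act on NKG2D ligand transcripts 26 were tested, of which 2 were higher, 4 lower and 20 not past the threshold, 23.1% called against 11.4% of all genes tested, with a median log2 fold change of 0.01, the same as over all genes (0.01). DDIT3, the gene of the stress factor CHOP, was at 100.2, 72.9 and 74.3 FPKM in the knockdown libraries, against 198, 163 and 178 FPKM in the control libraries (log2 fold change -1.13, limma, adjusted p = 0.00298). The transcription factors MYC (-0.49, adjusted p = 0.00301) and XBP1 (-0.47, adjusted p = 0.00218) fell. The DNA damage kinase CHEK2 rose to 7.30 ± 0.451 FPKM in the knockdown, against 3.98 ± 0.738 FPKM in the control (SD, n = 3 each; 0.75, adjusted p = 0.00872). The other 2 called were ATM, a DNA damage kinase, at 0.32 and the AP-1 subunit JUN at -0.36. ATF4, a stress factor known to raise ULBP1 transcription in human cells, was at 352 ± 13.1 FPKM in the knockdown and 388 ± 5.06 FPKM in the control (-0.14, adjusted p = 0.0703), and RBM4, an RNA-binding protein known to support ULBP1 splicing, had 0.03 (adjusted p = 0.633). HSF1, the heat shock factor, had -0.07 (adjusted p = 0.69). ATM, JUN, ATF4, RBM4 and HSF1 were named after their values were seen.

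Of 27 genes that make GPI anchors or attach them to proteins such as ULBP1 and ULBP2, 26 were tested, 2 were higher, 1 was lower and 23 were not past the threshold (median -0.02). The share called, 11.5%, was at the background of 11.4% over all genes tested. PIGY, which takes part in the first step, was listed at 0 in every library in a locus of 7 genes. Whether a listed 0 in this table means that a transcript is missing was not tested. PIGN rose by 0.42, PGAP1, which remodels the anchor, rose by 0.38 and PIGQ fell by 0.46 on the log2 scale (limma, adjusted p = 0.0313, 0.0321 and 0.0158). With 1 library left out the list had 0 to 3 calls. It had none without knockdown replicate 2 or control replicate 3, 1 without knockdown replicate 1 or control replicates 1 or 2, and 3 without knockdown replicate 3. PIGK, the catalytic subunit of the transamidase that attaches the anchor, had 0.05 (adjusted p = 0.685). PIGK and PIGY were named after their values were seen.

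Ligands of other NK receptors were close to level. Of 20 symbols, which include newer names of the same genes, 18 were found and 15 were tested; PVR alone was called, as higher (6.67%, against 11.4% of all genes tested), and the other 14 were not past the threshold (median 0.09). PVR, a ligand of the receptors DNAM-1 and TIGIT, was at 71.9, 68.7 and 66.6 FPKM in the knockdown libraries, against 60.3, 58.3 and 59.6 FPKM in the control libraries (log2 fold change 0.21, limma, adjusted p = 0.0253). When libraries were left out singly its call held without knockdown replicate 3 and was lost in the other 5 fits (adjusted p = 0.0589 to 0.0847). PVR lay far above every NKG2D ligand in level, as did HLA-E (127 ± 2.95 FPKM in the knockdown and 130 ± 2.61 FPKM in the control) and BAG6 (107 ± 7.42 FPKM in the knockdown and 109 ± 2.67 FPKM in the control; SD, n = 3 each). NCR3LG1, the ligand B7-H6 of the receptor NKp30, was at 1.98 ± 0.0849 FPKM in the knockdown and 2.19 ± 0.176 FPKM in the control. HLA-E, BAG6 and NCR3LG1 were named after their values were seen.

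**Figure D5:**
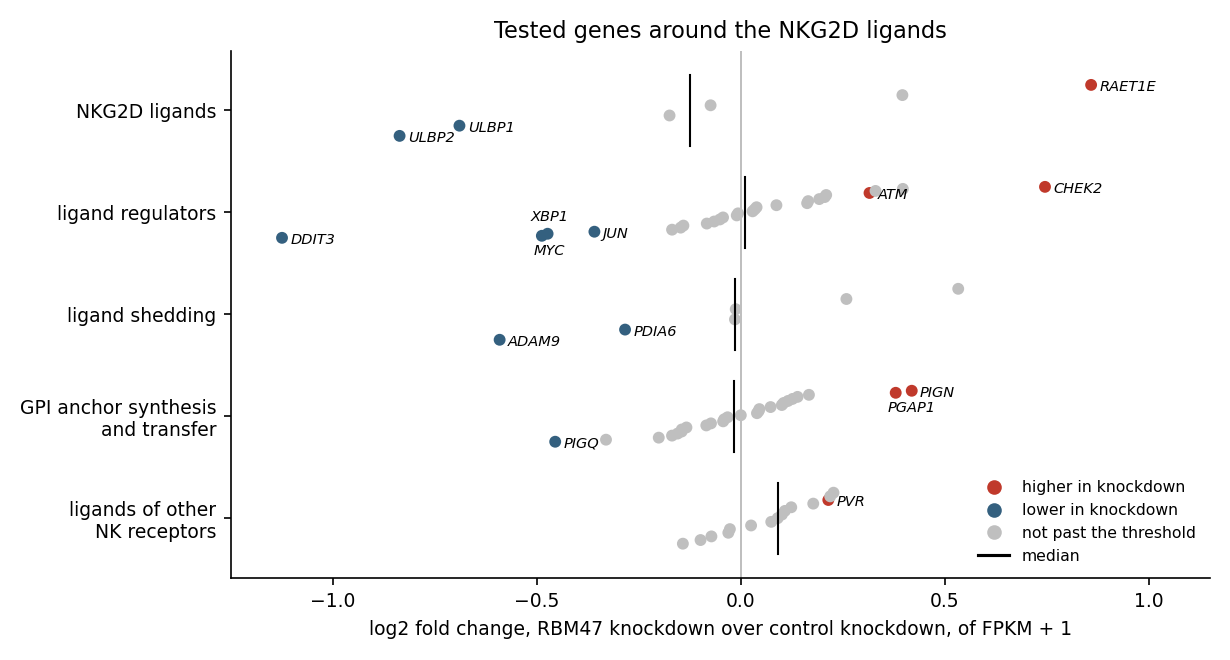
Log2 fold change (horizontal axis) of every tested gene of 5 lists, with called genes named, in red where higher and in blue where lower in the knockdown, and the median of each list as a black line. Among the NKG2D ligands called genes stand on both sides, at -0.84, -0.69 and 0.86, whereas the list of other NK ligands holds 1 called gene at 0.21.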

How the data were processed

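Stranded mRNA libraries were made from TRIzol-extracted total RNA, per the labels' protocols. The authors deposited gene-level FPKM for 6 libraries, and TopHat 1.4.1, Cuffdiff 2.2.0 and hg19 are named, without settings, per the submitters' processing notes. The scaling between libraries was not given in the sources used here. Since FPKM are not counts, no count test was run. The 0-based starts of the table were turned into 1-based ones.

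The 6 libraries were fitted with limma 3.58.1 (R 4.3.3) on log2(FPKM + 1), using a trended prior and no covariate, for genes averaging 1 FPKM or more, with Benjamini-Hochberg adjustment over all 14419 genes; exact two-sided permutation tests of 3 against 3 cannot go below 0.1. P-values measure the spread between these libraries. Relative depth is the most frequent ratio (within 0.02 on the log2 scale) between values under 0.3 FPKM of genes alone in their locus. The limma fit was tested on simulated data with normal noise.

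The members, the 6 pathway lists and the 4 marker lists were chosen with earlier results of these data known. Named were all members, RBM47, in each list the 4 called genes of largest fold change at most (2 by level if no gene was called), and the 3 genes (mean of at least 5 FPKM, symbol with 1 row) closest in profile to each called member; other names are marked where they stand. Promoters are RefSeq's (GRCh38.p14), and both strands were searched. Transcript sequences are those of GENCODE release 29, with no coordinates taken from it. Alternatives were pseudocounts of 0.5 and 0.1, dropping the filter, a filter at a mean of 5 FPKM, the same total, the same upper quartile or quantile normalization, limma without trend or with array weights, a replicate block and leaving out each library.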

Additional observations from a re-analysis of the deposited data

How the results depend on the processing

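Of the NKG2D ligands 3 were past the threshold in 15 of 16 other settings, and 2 at a mean of at least 5 FPKM, where RAET1E was no longer tested. ULBP1, ULBP2 and RAET1E kept their direction and their call in every setting that tested them: ULBP1 at -0.75 to -0.66 (limma, adjusted p = 0.000953 to 0.0159), ULBP2 at -0.91 to -0.81 (0.000461 to 0.0104) and RAET1E at 0.80 to 1.17 (0.00251 to 0.0265). With 1 library left out RAET1E stayed at 0.80 to 0.92. ULBP3, MICA and MICB passed in none of the 15 settings that tested them, with MICB at 0.33 to 0.55 (0.0731 to 0.213) and ULBP3 at -0.40 to -0.01, the ends being the fits without knockdown replicates 2 and 1. RBM47 lay at -2.76 to -2.63. Summing the rows of a symbol was not run, since each ligand had 1 row. Over all genes 1650 passed in the main setting (736 higher, 914 lower) and 1700 with the same total FPKM, where the balance turned (914 higher, 786 lower), 916 without a filter and 630 to 1255 with 1 library left out. Same-numbered libraries correlated at 0.02, -0.10 and 0.08 in their deviations from the group means, so the numbers were not taken to pair the samples; with the replicate block 837 genes and the same number of ligands, 3, passed. PIGQ, PIGN, PGAP1, PVR, HCP5 and LRP11 lost their calls in 3 to 8 of 16 settings, with no change of sign, and the list of other NK ligands had 0 to 5 calls, the most with quantile normalization. Fragment numbers are unknown, so the precision that depth gives at low levels such as those of RAET1G and RAET1L could not be stated.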

Other observations

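The RAET1/ULBP cluster also holds pseudogenes. RAET1K was at 1.23, 0.725 and 0.711 FPKM in the knockdown libraries, against 0.663, 0.473 and 0.794 FPKM in the control libraries, groups that overlapped. In the MHC the MIC pseudogenes MICC, MICF and MICG were listed at 0 in every library, while MICE ran from 0.425 to 1.14 FPKM in the knockdown libraries and from 0.807 to 1.02 FPKM in the control libraries. MICD was at 0.380, 0.0928 and 0.272 FPKM in the knockdown libraries, against 0.0867, 0.264 and 0 FPKM in the control libraries. Genes of other NK ligands at or near 0 were HLA-G, with 0.183 FPKM as its highest value, and CD48, with 0.125 FPKM. These genes were named after their values were seen.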
